A study of Mus musculus with 2 samples.

Results

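Gzmm, Nkg7, Ctsw, Cst7 and Srgn encode proteins of the cytotoxic granule, the secretory lysosome with which CD8 T cells and natural killer (NK) cells kill target cells. These 5 genes, of 31017 gene symbols in the deposited tables, were listed under their symbols in both libraries, and each had at least 1396 UMIs (unique molecular identifiers, 1 per captured transcript) in each library. They were selected on their measured levels in these same libraries, so that all values below are descriptions without a test. They were read against whether a cell held at least 1 UMI or 0 UMIs of Ccl5 (a chemokine whose mRNA memory CD8 T cells store), Ly6c2 (the surface antigen Ly6C) and Gzmk (granzyme K, a marker of age-associated CD8 T cells in mice).

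In a granule, serglycin (Srgn) is the proteoglycan core whose sugar chains hold granzymes and perforin, and granzyme M (Gzmm) is one of the serine proteases delivered to the target cell. Nkg7 is a granule membrane protein that takes part in granule release, cathepsin W (Ctsw) is a cysteine protease of CD8 T and NK cells, and cystatin F (Cst7) inhibits lysosomal cysteine proteases, among them cathepsin C, the enzyme that activates progranzymes. Resting memory CD8 T cells keep mRNA of part of this machinery, whereas naive cells hold little of the granzymes.

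Splenic CD8 T cells of 2 origins were compared within aged hosts. The old recipient library held the hosts' own CD45.2+CD3e+CD8a+ cells (CD45.2 C57BL/6J, wild type, aged 24 months at transfer and 25 months at harvest), and the young donor library held CD45.1+CD3e+CD8a+ cells, which came from total CD8 T cells of CD45.1 C57BL/6J wild-type mice aged 3 months and were sorted from the same kind of host 1 month after transfer. Each group was 1 droplet 5' gene expression library, and the labels did not say whether 1 mouse or a pool was used, so that library and group cannot be told apart and every interval covers counting error only. In summed values, more cells with a gene and more mRNA per cell cannot be told apart, and levels are given as CPM, the UMIs of a gene in every 1000000 UMIs of the cells concerned.

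Filtering left 5341 recipient cells, whose median depth was 6880 UMIs, and 7451 donor cells, whose median depth was 7788 UMIs. In summed levels, 1 UMI was worth 0.0267 CPM in the recipient and 0.0173 CPM in the donor. The 5 CD8 T cell markers (Cd3e, Cd3d, Cd8a, Cd8b1, Trac) summed to 4250 CPM in the recipient and 4010 CPM in the donor with none at 0. Markers of other cells were low, with 55.2 and 28.9 CPM over 5 NK cell markers (Ncr1 at 2 recipient UMIs and 0 donor UMIs), and 0.774 and 1.78 CPM over 5 myeloid markers in the recipient and the donor. The libraries shared 105 barcodes, carried by 64 recipient cells (1.2%) and 70 donor cells (0.939%).

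All 5 genes were placed on mm10 (GRCm38, GENCODE M21), Gzmm (ENSMUSG00000054206) at chr10:79689020-79695261 on the plus strand and Nkg7 (ENSMUSG00000004612) at chr7:43437073-43438249 on the plus strand. Cst7 (ENSMUSG00000068129) lies at chr2:150570415-150578944 on the plus strand and Srgn (ENSMUSG00000020077) at chr10:62493833-62527451 on the minus strand. Ctsw (ENSMUSG00000024910), at chr19:5465043-5468507 on the minus strand, overlaps Fibp on the plus strand. Ly6c2 has the near-identical copy Ly6c1, so how their reads were split is uncertain.

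Promoters are shown for Gzmm and Nkg7, the genes that passed a 2-fold difference by a status gene below, and for Cst7 beside them, because T-box factors (Tbx21, Eomes) and Runx3 are known regulators of cytotoxic genes in CD8 T cells. Each run is the 250 bases before a RefSeq transcript start (GRCm38.p6), read 5' to 3' on the gene's strand, which was plus for all. Capitals mark matches to GGTGTGA (T-box) or TGTGGT (RUNX) on either strand, where the other strand reads TCACACC or ACCACA. No matches overlapped.
Gzmm, first start, chr10:79688770-79689019: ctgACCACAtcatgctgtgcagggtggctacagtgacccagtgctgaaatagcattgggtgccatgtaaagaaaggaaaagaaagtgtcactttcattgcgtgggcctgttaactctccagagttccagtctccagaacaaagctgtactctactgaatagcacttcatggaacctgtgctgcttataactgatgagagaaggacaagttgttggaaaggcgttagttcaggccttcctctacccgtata
Gzmm, second start, chr10:79693576-79693825: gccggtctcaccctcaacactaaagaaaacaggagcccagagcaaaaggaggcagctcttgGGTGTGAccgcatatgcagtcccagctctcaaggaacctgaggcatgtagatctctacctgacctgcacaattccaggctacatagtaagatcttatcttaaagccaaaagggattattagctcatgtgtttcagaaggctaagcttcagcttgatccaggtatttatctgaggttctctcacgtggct
Nkg7, chr7:43436888-43437137: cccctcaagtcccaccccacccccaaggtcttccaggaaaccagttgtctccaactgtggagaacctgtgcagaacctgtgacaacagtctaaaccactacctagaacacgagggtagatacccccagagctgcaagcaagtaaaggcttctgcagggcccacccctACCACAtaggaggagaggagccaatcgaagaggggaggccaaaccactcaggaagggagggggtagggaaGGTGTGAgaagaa
Cst7, chr2:150570165-150570414: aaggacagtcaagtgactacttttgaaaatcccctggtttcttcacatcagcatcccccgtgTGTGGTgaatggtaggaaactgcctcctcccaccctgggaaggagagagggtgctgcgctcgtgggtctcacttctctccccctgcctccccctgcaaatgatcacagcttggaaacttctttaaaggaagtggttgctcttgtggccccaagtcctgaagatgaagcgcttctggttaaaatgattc

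RefSeq held 6 promoters for 4 of the 5 genes, and Ctsw was not among them. The 2 promoters of Srgn are not printed, the first of which held neither motif and the second the RUNX letters 202 bases before its start. Nkg7 had both kinds of match, the T-box letters beginning 13 bases and the RUNX letters 83 bases before the start. The T-box match of Nkg7 lay within the longer transcript of GENCODE, whose start is 65 bases upstream of that of RefSeq. Gzmm had the RUNX letters 247 bases before its first start and the T-box letters 189 bases before its second, which lies 4806 bases downstream within the gene, and Cst7 had the RUNX letters 188 bases before its start. Of 32851 promoters of the same length, 3.33% held the T-box letters and 14.0% the RUNX letters. A match is a description of letters, not of binding.

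Over all cells, Gzmm was the gene with the largest library difference of the 5, and it was lower in the old recipient. Gzmm had 37.3 CPM in the recipient (35.3 to 39.3, from 1396 UMIs) and 99.9 CPM in the donor (97.4 to 102.5, from 5774 UMIs), a log2 ratio of -1.42 (95% interval -1.51 to -1.34), or 2.68-fold more in the donor. The other 4 genes differed less between libraries. Ctsw had 417 CPM in the recipient and 499 CPM in the donor (log2 ratio -0.26, -0.28 to -0.23), and Cst7 had 229 and 260 CPM (-0.18, -0.22 to -0.15). Nkg7 was nearly level at 1507 CPM in the recipient and 1537 CPM in the donor (-0.03, -0.04 to -0.01). Srgn was higher in the recipient, with 470 CPM against 421 CPM in the donor (0.16, 0.13 to 0.19). By a fold of at least 1.5, 1 of the 5 genes (Gzmm) was lower in the recipient and 0 were higher, where 1.87% of the 10388 genes with at least 100 UMIs were lower and 3.11% higher.

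Gzmm differed in the share of cells that held it. With every cell thinned to 3500 UMIs, which left out 500 recipient cells (9.36%) and 463 donor cells (6.21%), 7.09% of recipient cells (exact binomial interval 6.38 to 7.84%) and 19.1% of donor cells (18.2 to 20%) had a Gzmm UMI. Without thinning these shares were 9.79% and 27.5%, and cells with Gzmm held a mean of 2.67 UMIs (recipient) and 2.82 UMIs (donor), a mean that leaves out cells at 0 and to which a small group of recipient cells, described below, gave many UMIs. The top 1% of all recipient cells carried 33.2% of the Gzmm UMIs, against 13.4% in the donor. This figure is not separate from the shares above, as it rises when fewer cells hold the gene.

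Nkg7 was found in 92.5% of thinned recipient cells and 96.0% of donor cells, Ctsw in 71.3% and 78.4%, Cst7 in 51.3% and 57.2%, and Srgn in 76.1% and 74.8%. The background of these shares was taken from cells with 0 thinned UMIs of Ccl5, Ly6c2 and Gzmk (1393 recipient and 797 donor cells). Gzmm was found in 0.144% of these recipient cells (0.0174 to 0.518%) and 0.502% of these donor cells (0.137 to 1.28%), under its share in all cells. The other 4 were common there too, with Nkg7 in 83.1% and 83.6%, Ctsw in 57.4% and 56.2%, Cst7 in 40.8% and 44.0%, and Srgn in 70.2% and 71.6% of recipient and donor cells. Whether those UMIs came from the cells or from free RNA was not tested, so for these 4 genes presence is a weak measure and level is used below.

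**Figure D1:**
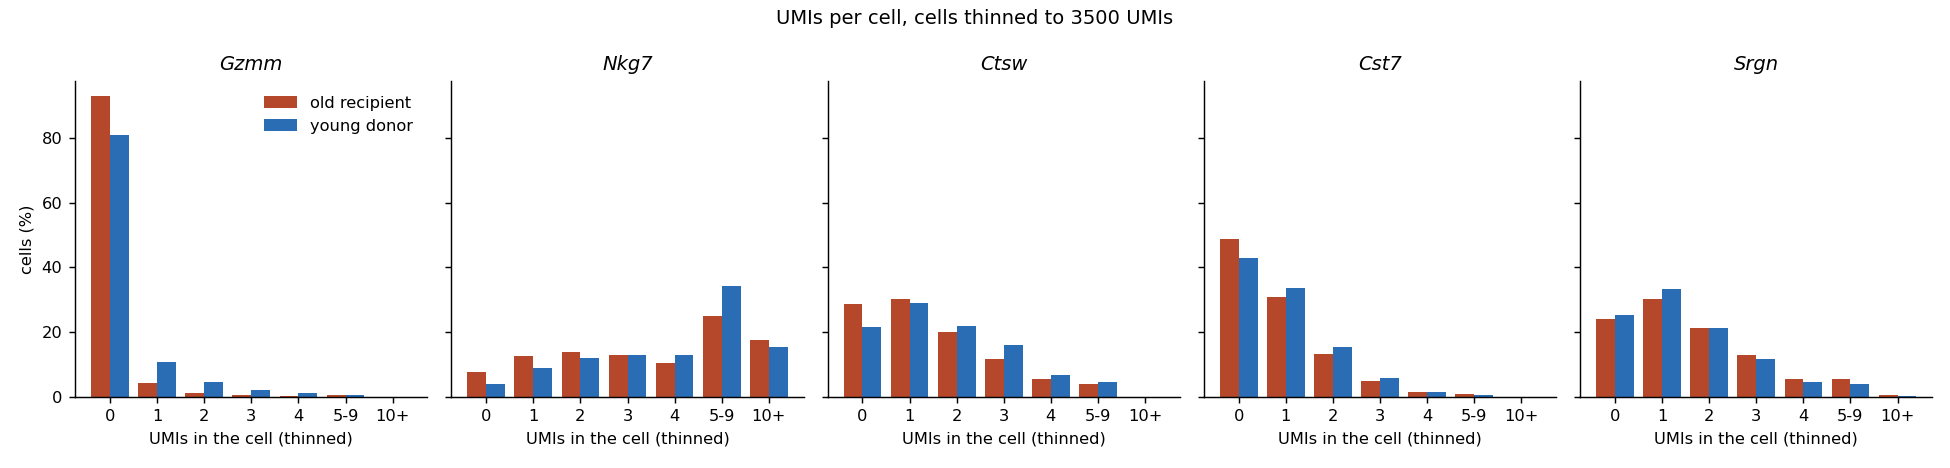
Share of cells (vertical axis, %) by the number of UMIs of each gene in a cell thinned to 3500 UMIs (horizontal axis), for the old recipient and the young donor. Gzmm was at 0 UMIs in most cells of both libraries (a UMI in 7.09% of recipient cells against 19.1% of donor cells), whereas Nkg7 had one in 92.5% and 96.0%.

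Ccl5 was found in 67.4% of recipient cells and 79.7% of donor cells. Of the 5 genes, Gzmm went with Ccl5 by the largest ratio. It had 56.8 CPM in recipient cells with Ccl5 and 1.44 CPM in those without (log2 ratio 5.31, 4.66 to 6.04), and 125 CPM in donor cells with Ccl5 and 4.18 CPM in those without (4.90, 4.50 to 5.33). Of 1396 Gzmm UMIs in the recipient, 19 were in cells without Ccl5, and of 5774 in the donor, 50 were.

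The remaining genes followed Ccl5 by smaller ratios. Nkg7 had 1920 CPM with and 750 CPM without Ccl5 in the recipient (1.36) and 1731 and 796 CPM in the donor (1.12). Ctsw had 487 CPM with and 290 CPM without Ccl5 in the recipient (0.75) and 545 and 321 CPM in the donor (0.76), and for Cst7 the ratios were 0.59 and 0.67 in the recipient and the donor. Srgn was nearest to level, with ratios of 0.37 in the recipient and 0.12 in the donor. By at least 2-fold, 2 of the 5 genes (Gzmm and Nkg7) were higher with Ccl5 in each library, beside 4.6% of 9254 genes in the recipient and 3.84% of 9748 genes in the donor, and 0 of the 5 were 2-fold lower, beside 0.659% and 1.19%.

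A single Ccl5 UMI was a poor mark of Gzmm in the recipient. Among thinned recipient cells the share with Gzmm was 0.618% at 0 Ccl5 UMIs, 0.543% at 1 to 2, 5.0% at 3 to 9, 12.8% at 10 to 29 and 17.2% at 30 or more. In donor cells it was 1.48%, 3.73%, 15.7%, 28.4% and 28.4% over the same steps. The donor thus reached its highest share by 10 UMIs, and at each step its share was above that of the recipient. Without thinning, 12.1% of recipient cells and 5.22% of donor cells held exactly 1 Ccl5 UMI; the part of free Ccl5 RNA in this was not tested.

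**Figure D2:**
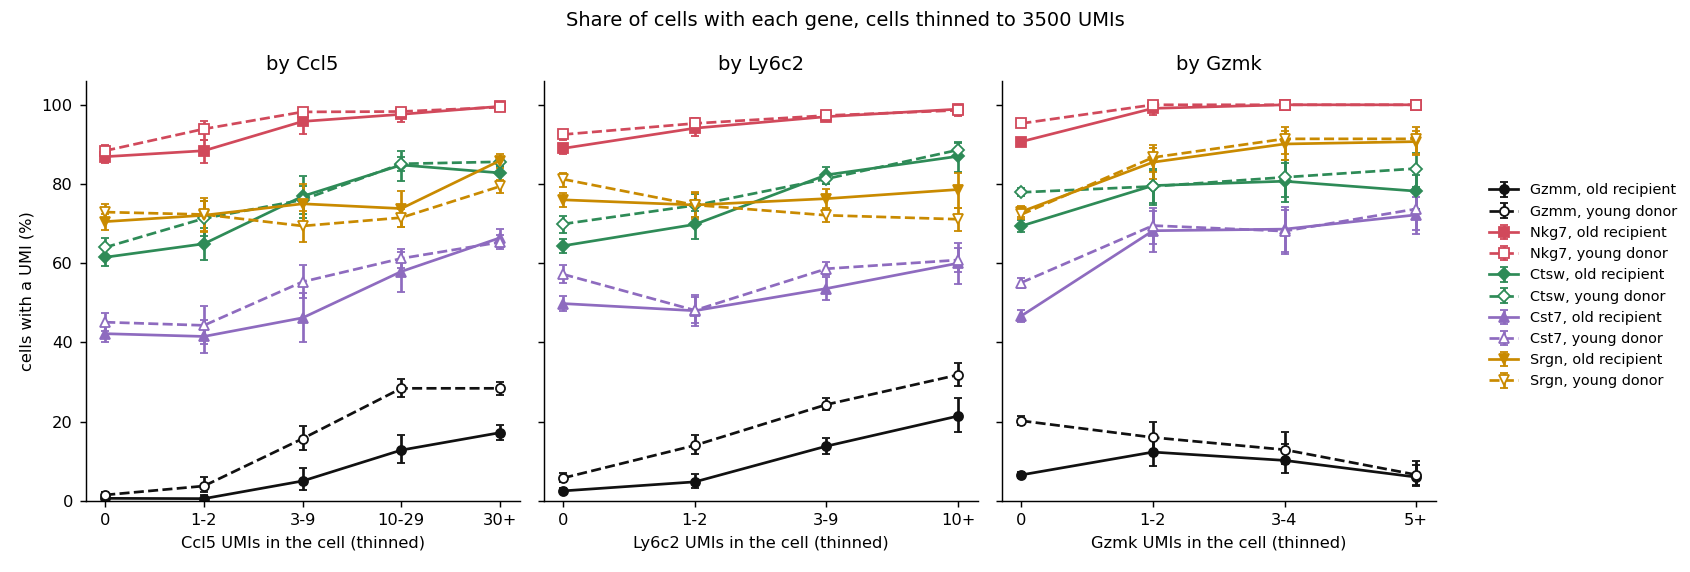
Share of thinned cells with a UMI of each gene (vertical axis, %) by the number of Ccl5, Ly6c2 or Gzmk UMIs in the same cell (horizontal axes), with exact 95% binomial intervals and filled markers for the old recipient, open ones for the young donor. The Gzmm share was 17.2% in recipient and 28.4% in donor cells with 30 or more Ccl5 UMIs, and 5.99% and 6.58% in cells with 5 or more Gzmk UMIs.

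Ly6c2 was found in 50.2% of recipient cells and 73.2% of donor cells. Over all cells, the levels of Gzmm and Nkg7 went with it in opposite directions. Gzmm had 57.9 CPM with and 10.8 CPM without Ly6c2 in the recipient (2.42, 2.20 to 2.66), and 119 and 25.3 CPM in the donor (2.23, 2.06 to 2.41). The recipient's ratio was 3.31 (2.94 to 3.69) without the cells that carry the leading Trbv segments (T cell receptor beta V segments) of Gzmk cells, and 1.90 (1.67 to 2.15) without cells whose leading segment is Trbv14, a setting chosen after the data were seen. Nkg7 had 1329 CPM with and 1735 CPM without Ly6c2 in the recipient (-0.38), and 1364 and 2225 CPM in the donor (-0.71). The share of thinned cells with Nkg7 was instead higher with Ly6c2, at 96.5% against 89.0% in the recipient and 97.3% against 92.5% in the donor. Among cells with Ccl5 and without Gzmk, the level of Nkg7 was also higher with Ly6c2 (0.49 and 0.09), as described below. Ctsw went with Ly6c2 (0.56 in the recipient, 0.40 in the donor), Srgn was lower with it (-0.22 and -0.49), and Cst7 was close to level (-0.07 and -0.13), with the sign turned in both libraries (0.012 and 0.021) when the leading Trbv segments of Gzmk cells were left out. Past 2-fold, 1 of the 5 genes (Gzmm) was higher and 0 were lower in each library. Of all genes, 0.735% were higher and 1.63% lower in the recipient, and 1.69% higher and 2.92% lower in the donor.

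Gzmk was found in 24.3% of recipient cells and 18.8% of donor cells, which were shallower than the others (medians of 4555 UMIs with and 7551 without Gzmk in the recipient, 4548 and 8229 in the donor). Nkg7 had its highest levels there, 3809 CPM with and 1008 CPM without Gzmk in the recipient (1.92, 1.89 to 1.94), and 3603 and 1238 CPM in the donor (1.54, 1.52 to 1.56). Srgn had 719 CPM with and 416 CPM without Gzmk in the recipient (0.79), and 678 and 384 CPM in the donor (0.82). Cst7 was higher by 0.92 and 0.65 and Ctsw by 0.38 and 0.12 in recipient and donor cells with Gzmk.

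Gzmm was the exception over all cells, with opposite signs in the libraries. It had 46.0 CPM with and 35.4 CPM without Gzmk in the recipient (0.38, 0.19 to 0.56), but 69.0 CPM with and 104 CPM without Gzmk in the donor (-0.60, -0.73 to -0.47). Among Ccl5+ Ly6c2+ cells, where + means at least 1 UMI and - means 0, both intervals reached across 0 (0.20, -0.06 to 0.44 in the recipient; -0.13, -0.31 to 0.04 in the donor). Among Ccl5+ Ly6c2- cells Gzmm was higher with Gzmk in the recipient, at 32.2 CPM against 3.83 CPM without it (3.07, 2.30 to 3.94), and in the donor it had 43.9 against 36.9 CPM, with an interval across 0 (0.25, -0.15 to 0.67). The negative sign of the donor was thus not seen in Ccl5+ Ly6c2- cells. The recipient's ratio over all cells moved with the cells left out. It was 0.08 (-0.18 to 0.34) without the 3 leading Trbv segments of Gzmk cells, 0.60 (0.40 to 0.79) without Fcer1g cells and 0.87 (0.67 to 1.07) without Trbv14 cells. Past 2-fold, 1 of the 5 genes (Nkg7) was higher in each library, beside 7.72% of all genes in the recipient and 6.5% in the donor.

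Within Gzmk cells, Gzmm was lower the more Gzmk a cell held. In thinned recipient cells Gzmm stood at 61.1 CPM at 1 to 2 Gzmk UMIs, 42.8 CPM at 3 to 4 and 29.6 CPM at 5 or more, and in donor cells at 83.0, 54.3 and 35.7 CPM. Nkg7 ran the other way, with 3532, 4179 and 4351 CPM in the recipient and 3461, 3830 and 4348 CPM in the donor. The highest Gzmk step is where the libraries were close for both genes, in contrast to cells at 0 Gzmk UMIs, where Gzmm stood at 38.2 CPM in the recipient and 104 CPM in the donor.

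The 3 status genes together gave 8 combinations, of which 6 had at least 100 cells in both libraries. Gzmm was highest among Ccl5+ Ly6c2+ cells, at 87.9 CPM in recipient and 128 CPM in donor cells that also had Gzmk, and at 76.7 and 140 CPM in those without it. Among Ccl5+ Ly6c2- Gzmk+ cells it had 32.2 and 43.9 CPM. In Ccl5- Ly6c2- Gzmk- cells it had 0.661 CPM in the recipient and 1.06 CPM in the donor, from 5 UMIs each, which is near nothing in both libraries.

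Nkg7 was instead highest in Ccl5+ Ly6c2- Gzmk+ cells, with 4085 CPM in the recipient and 4019 CPM in the donor (log2 ratio 0.02). Of the 3 strata compared, its level was lower with Ly6c2 among Ccl5+ Gzmk+ cells (-0.37 in the recipient and -0.58 in the donor). Among Ccl5+ Gzmk- cells Nkg7 was higher with Ly6c2 (0.49 and 0.09), and among Ccl5- Gzmk- cells likewise (0.43 and 0.42). Cst7 showed the same turn, with -0.23 and -0.39 among Ccl5+ Gzmk+ cells and 0.37 and 0.34 among Ccl5+ Gzmk- cells. For Nkg7 and Cst7 the overall Ly6c2 ratio has another sign than most of its strata.

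**Figure D3:**
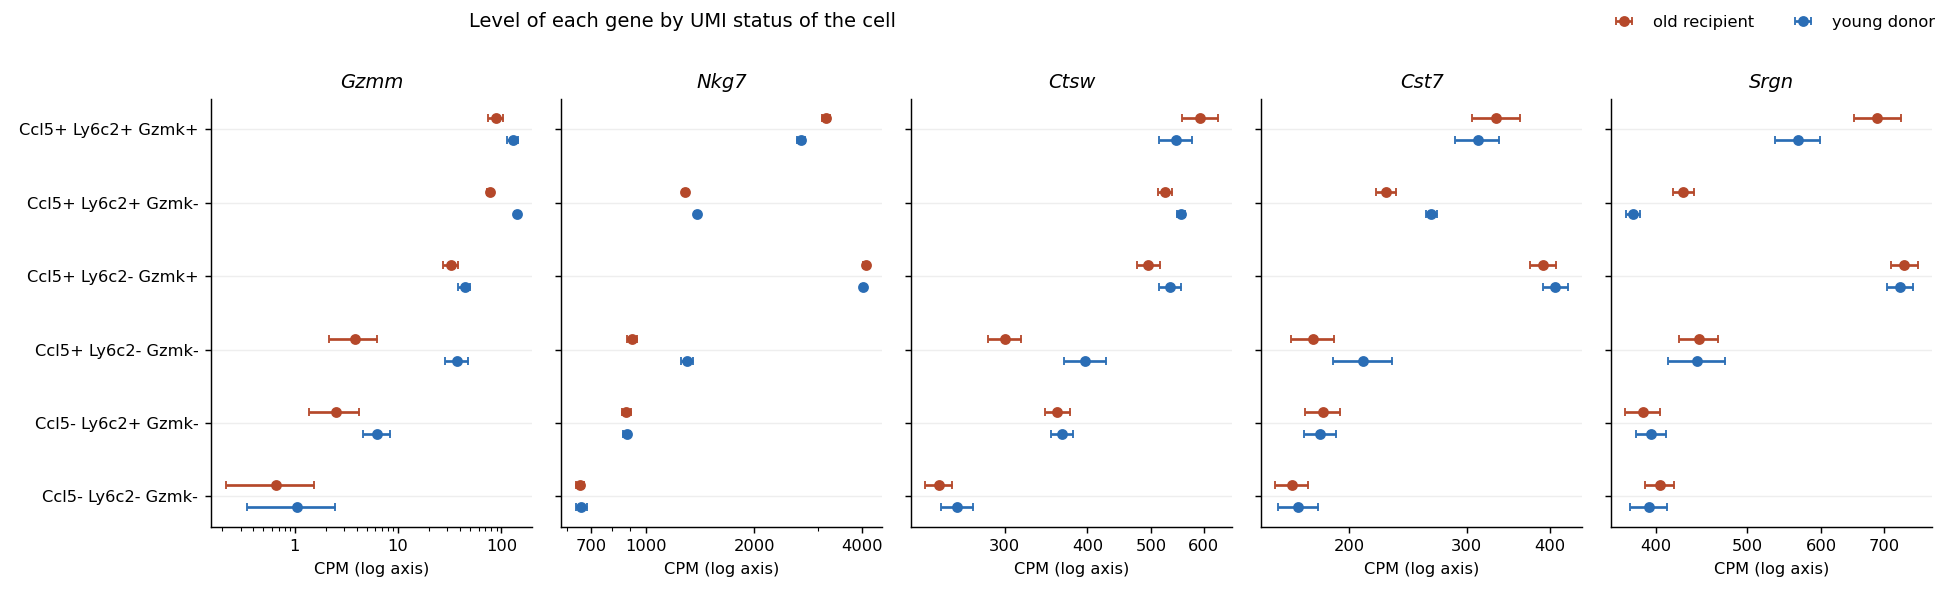
Level of each gene (CPM, log axes that differ between panels, 95% Poisson intervals) in the 6 status combinations with at least 100 cells in both libraries, old recipient above young donor. Gzmm spans 0.661 to 87.9 CPM in the recipient and 1.06 to 140 CPM in the donor, and Nkg7 peaks at 4085 and 4019 CPM in Ccl5+ Ly6c2- Gzmk+ cells.

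The library difference of Gzmm was also present among cells of one status. The largest combination, Ccl5+ Ly6c2+ Gzmk-, made up 32.2% of recipient cells and 57.5% of donor cells, and Gzmm there was at a log2 ratio of -0.87 (-0.97 to -0.77) for recipient over donor. In Ccl5+ Ly6c2+ Gzmk+ cells it was -0.54 (-0.84 to -0.25) and in Ccl5+ Ly6c2- Gzmk+ cells -0.45 (-0.75 to -0.15). It was largest in Ccl5+ Ly6c2- Gzmk- cells, with 3.83 CPM in the recipient (15 UMIs) and 36.9 CPM in the donor (66 UMIs), a ratio of -3.27 (-4.18 to -2.44). Markers of naive cells differed in both directions there, with Ccr7 at 421 CPM in the recipient and 334 CPM in the donor, Igfbp4 at 515 and 324 CPM, and Dapl1 at 260 and 378 CPM. Il2rb had 124 CPM in these recipient cells and 201 CPM in the donor ones, and the part of these genes in the Gzmm ratio was not tested.

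Weighting the recipient's combinations to the donor's mix brought Gzmm to 55.5 CPM against 99.9 CPM in the donor (-0.85, -0.94 to -0.76). With Ccl5 status set at 5 UMIs the weighted ratio was -0.53. Weighted ratios of the other genes were -0.05 for Nkg7, -0.08 for Ctsw, -0.16 for Cst7 and 0.12 for Srgn. With the Ccl5 limit at 5 UMIs, those of Nkg7 and Ctsw turned to 0.03 and 0.01.

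**Figure D4:**
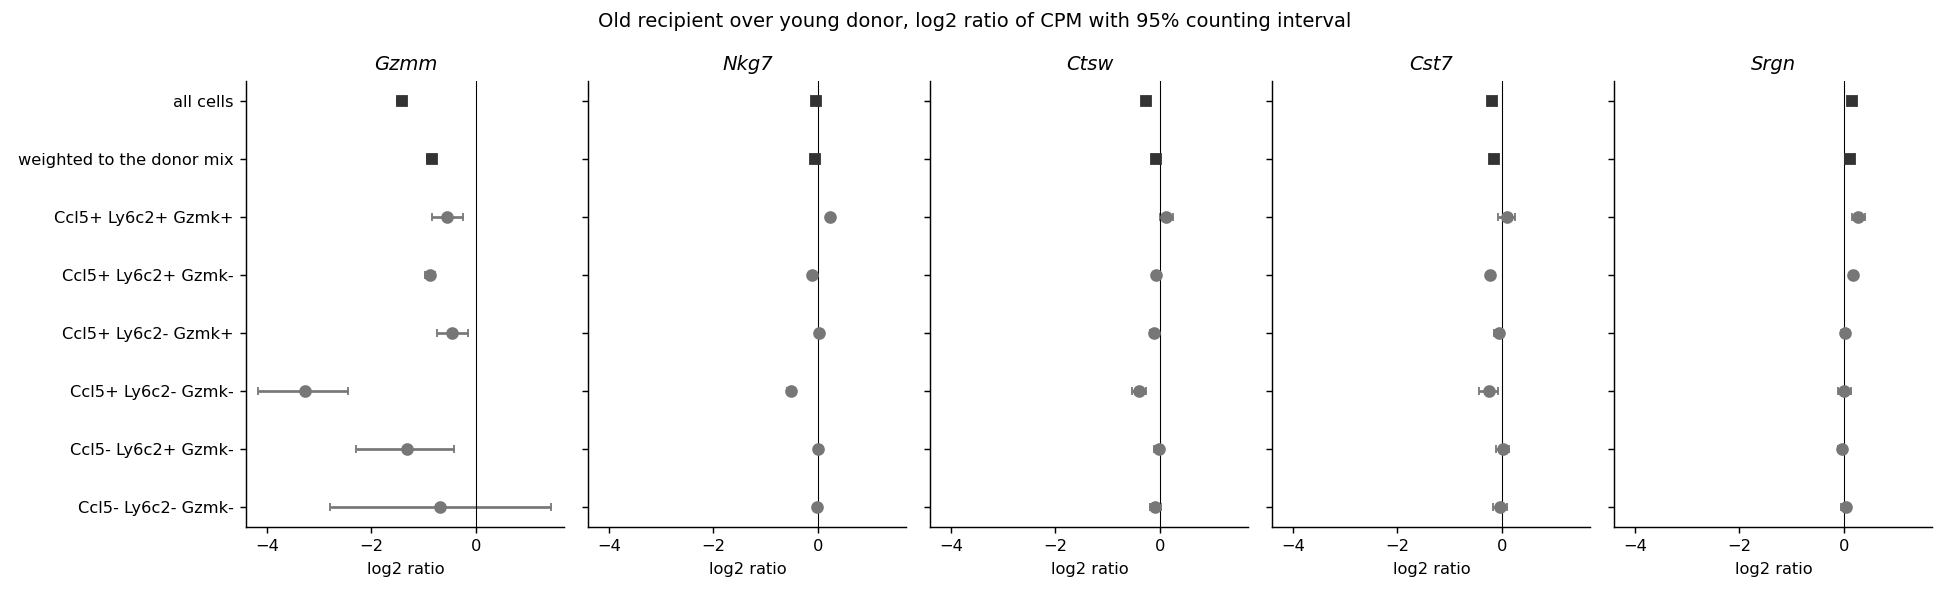
Log2 ratio of old recipient over young donor for each gene (horizontal axis; 0 is no difference; 95% counting intervals) over all cells, after weighting to the donor mix, and within 6 status combinations. Gzmm lies at -1.42 over all cells, -0.85 after weighting and -3.27 in Ccl5+ Ly6c2- Gzmk- cells, and Srgn at 0.16 over all cells.

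Cells with a given beta chain V segment of the T cell receptor carried much of the recipient's Gzmm. Among the 19 segments that led in at least 30 Ccl5+ Ly6c2+ Gzmk- cells, the share of cells with Gzmm was 12.2% for Trbv31, the lowest, and 60 of 133 cells for Trbv14, the highest, with a median of 18.9%, in the recipient. In the donor it ran from 30.3% (Trbv15) to 46.1% (Trbv16), with a median of 41.9%. Trbv14 was singled out after these values were seen. Over all recipient cells, the 277 Trbv14 cells had 187 CPM of Gzmm, against 28.2 CPM in cells with another detected beta segment. These Trbv14 cells held 28.1% of the recipient's Gzmm UMIs. Over all donor cells, the 376 Trbv14 cells had 85.8 CPM, against 99.6 CPM in cells with another detected beta segment. Among donor Ccl5+ Ly6c2+ Gzmk- cells, Gzmm was found in 74 of 163 Trbv14 cells and in 40.7% of the others. That Trbv14 share was close to the recipient's. The level of Gzmm in this combination was 141 CPM in donor Trbv14 cells and 139 CPM in the others. In the recipient it was 358 and 53.5 CPM.

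The 64 recipient Trbv14 cells with Gzmm held a median of 6 Gzmm UMIs and at most 19, the highest count of any recipient cell. Of the 54 with a detected alpha chain V segment, 36 (66.7%) had Trav16n as the leading one, a segment with near-identical copies, against 9 of 171 Trbv14 cells without Gzmm. In the donor, the most common alpha segment of Trbv14 cells with Gzmm, Trav12-2, led in 7 of 70 (10.0%). Among recipient cells with at least 5 Gzmm UMIs, 43 of 99 had Trbv14 as the leading beta segment, and the most common segment of the 370 such donor cells, Trbv12-2, led in 38. Leaving out Trbv14 cells from both libraries, the Gzmm ratio was -1.83 over all cells, -1.31 after weighting and -1.39 in Ccl5+ Ly6c2+ Gzmk- cells. Receptor sequences were not analysed here, so whether these cells form a clone was not tested.

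Genes of the marker lists were also read against Gzmm, and Fcer1g and S1pr5 were picked out after their values were seen. The 170 recipient cells with Fcer1g, a signalling chain of NK cells that some CD8 T cells also express, had 169 CPM of Gzmm against 33.1 CPM in the other cells, and held 14.0% of its UMIs. In the donor, 51 cells had Fcer1g, with 52.2 CPM of Gzmm against 100 CPM in the others. Without Fcer1g cells the Gzmm ratio of recipient over donor was -1.60. Of the recipient's Trbv14 cells, 9 had Fcer1g.

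S1pr5, a receptor for sphingosine-1-phosphate that marks circulating effector cells, went with Gzmm in both libraries. Recipient cells with S1pr5 (259) had 242 CPM of Gzmm against 28.6 CPM in the others (3.08), and donor cells with it (772) had 228 against 83.3 CPM (1.45). Of the recipient's Trbv14 cells with Gzmm, 40.6% had S1pr5, and their part in the recipient value was not tested.

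Beyond status, the genes most like each member across cells were found by Pearson's r of log-scaled counts, computed in each library over 7199 genes and ranked by the lower value. Gzmm was most like Il2rb, the receptor chain shared by interleukin 2 and 15 (0.31 over 5341 recipient cells, 0.30 over 7451 donor cells), S100a6, Ly6c2, Fcgrt, the neonatal Fc receptor chain (0.26 and 0.31), and Ccl5. Nkg7 was most like Ccl5 (0.72 and 0.65), Gzmk (0.63 and 0.60), Ms4a4b, S100a6 and Anxa2. Ctsw was nearest to Ccl5 (0.32 and 0.30), S100a6, Ly6c2, Il2rb and Nkg7, and Cst7 to Ccl5 (0.27 and 0.26), Nkg7, Ctla2a, S100a6 and Actb. The genes most like Srgn were led by the class I genes H2-K1 (0.30 and 0.30) and H2-D1 (0.31 and 0.29), with Ms4a4b, Gzmk and S100a10. Cells of a library share its depth and free RNA, and most of these correlations are weak.

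Over all cells at the main thinning depth, Nkg7, Ctsw and Cst7 were found more often in cells with Gzmm than in cells without it, whereas Srgn was found about as often (76.1% and 76.1% in the recipient, 73.9% and 75.0% in the donor). With cells thinned to 3500 UMIs, the odds of finding Nkg7 in a cell with Gzmm against a cell without it were 4.87 times as high in the recipient and 5.53 times in the donor. The odds ratio of Gzmm with Ctsw was 4.05 in the recipient and 1.94 in the donor, and with Cst7 1.84 and 1.6. The 4 pairs with Srgn lay between 0.998 and 1.22 in the recipient and between 0.943 and 1.07 in the donor. Odds ratios depended on depth and on the cells used, and with cells thinned to 1000 UMIs that of Gzmm with Nkg7 was 2.62 in the recipient and 1.62 in the donor. Among cells with Ccl5 the odds ratios of Gzmm with Nkg7 were 2.38 and 1.88, with Ctsw 2.73 and 1.43, and with Srgn 0.744 and 0.918 in the recipient and the donor. Srgn itself had odds ratios of 1.43 and 1.26 with Nkg7 and 1.31 and 1.1 with Cst7 there, near the 1.33 and 1.16 of Ctsw with Cst7. At 1000 UMIs, Gzmm with Nkg7 came to 1.1 and 1.13 among cells with Ccl5. At 3500 UMIs the ratios of Gzmm with Nkg7 rest on few cells, as 6 recipient and 12 donor cells of all had Gzmm without Nkg7. At 1000 UMIs among cells with Ccl5, 26 recipient and 107 donor cells did.

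All 5 genes were found in 151 of 4841 thinned recipient cells (3.12%, 2.65 to 3.65%) and in 577 of 6988 donor cells (8.26%, 7.62 to 8.93%). In Ccl5+ Ly6c2+ Gzmk- cells, with status taken from thinned counts, 94 of 1361 recipient cells and 484 of 3961 donor cells had all 5. Of the 6 combinations, Ccl5+ Ly6c2+ Gzmk+ had the highest mean number of these genes per cell, 3.66 in the recipient and 3.54 in the donor. In the donor, Ccl5+ Ly6c2- Gzmk+ cells were nearly level with it at 3.53. There 56.8% of them had 4 or more of the genes, against 49.5% of Ccl5+ Ly6c2+ Gzmk+ cells. Cells with none of the 5 numbered 24 in the recipient and 22 in the donor.

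**Figure D5:**
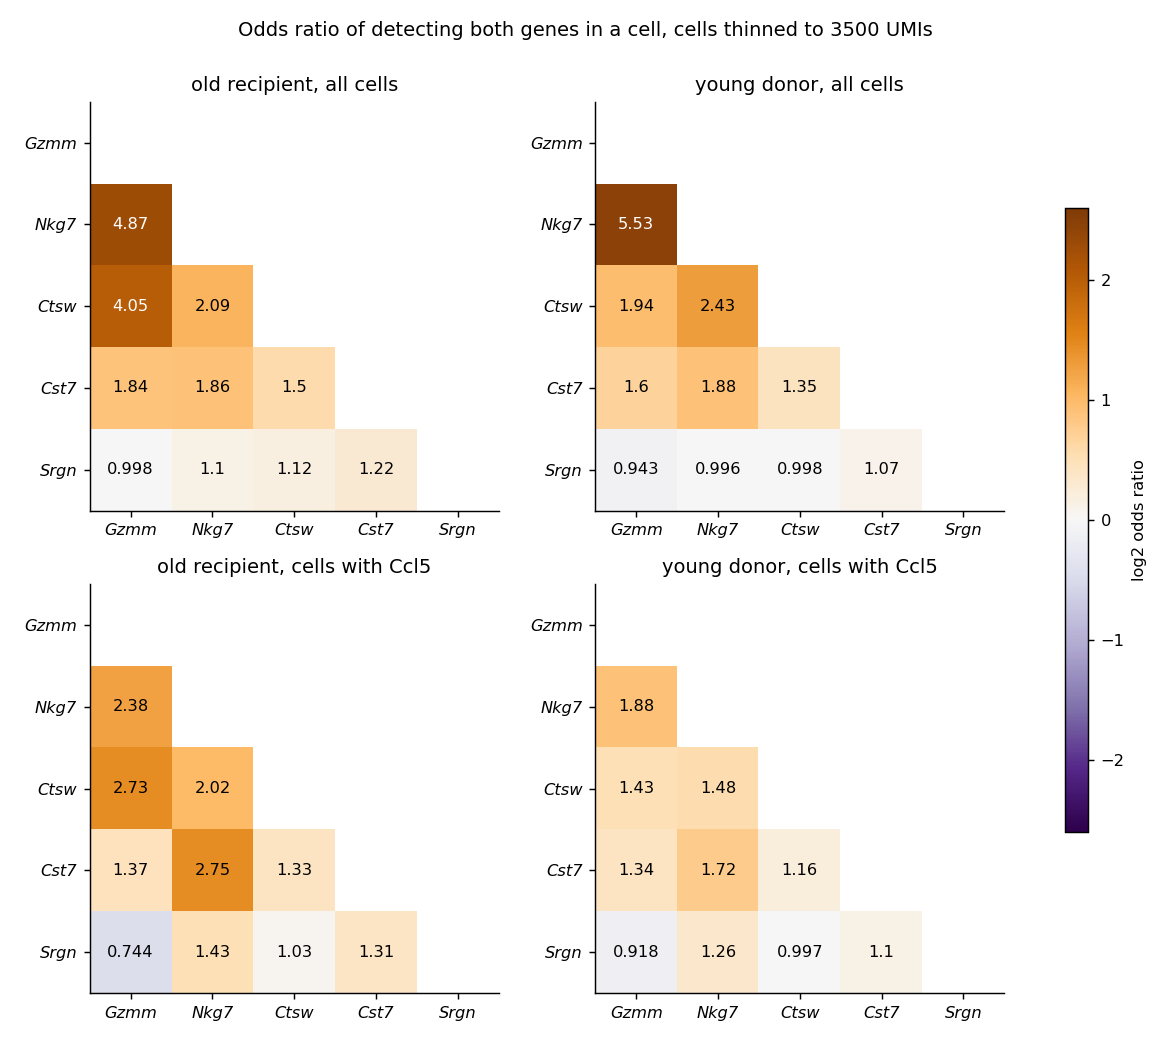
Odds ratio of detecting both genes of a pair in a cell thinned to 3500 UMIs (colour, log2 scale; printed values are odds ratios) in all cells (upper row) and in cells with Ccl5 (lower row), old recipient left and young donor right. Pairs of Gzmm with Nkg7 have 4.87 and 5.53 over all cells, and pairs with Srgn lie between 0.943 and 1.22 there. Among cells with Ccl5, Nkg7 with Srgn has 1.43 and 1.26 and Gzmm with Srgn 0.744 and 0.918.

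The wider granule pathway and factors of memory and effector cells were read from 7 lists of 71 genes in all, the 5 genes included. Of these lists, 1 held 14 transcription factors of memory and effector CD8 cells, which are not granule genes. The others held granule proteases and perforin, cathepsins and cystatins, intracellular serpins, granule membrane and acidification, granule sorting and release, and serglycin assembly. Between libraries, 4 of 64 listed genes with at least 100 UMIs were at least 1.5-fold higher in the recipient, beside 3.11% of all genes. They were Gzma (2.14), Gzmb (1.13), Gzmk (0.77) and the lysosomal protease gene Ctsl (0.79). The 2 lower ones were Gzmm and the T-box factor gene Tbx21 (-0.67), beside 1.87% of all genes. Granzyme genes therefore did not share a direction, as Gzma had 53.4 CPM in the recipient and 12.1 CPM in the donor, opposite to Gzmm. The median of the lists was 0.08, beside 0.04 over all genes.

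By Ccl5 status, 20 of 62 listed genes were at least 2-fold higher in the recipient, beside 4.6% of all genes. In the donor 18 of 63 were, beside 3.84%. In each library 2 were lower, beside 0.659% (recipient) and 1.19% (donor) of all genes. The transcription factor list gave 7 of the higher genes in each library. Medians of the listed genes were 0.44 and 0.27, beside 0.13 and 0.08 over all genes. Perforin, Prf1, had 73.2 CPM with and 29.0 CPM without Ccl5 in the recipient (1.34), and 76.8 and 29.7 CPM in the donor (1.37). Serpina3g, an intracellular protease inhibitor gene of mice, had ratios of 4.64 and 3.07, and Stx11, a syntaxin needed for granule release, 3.77 and 2.03 in the recipient and the donor. Tbx21 stood at 3.38 and 2.61 and Eomes at 2.64 and 2.09, and Runx3 at 0.44 and 0.46. Chsy1, which builds the chondroitin chains that serglycin carries, was at 2.20 and 1.88, beside 0.37 and 0.12 for Srgn itself. Ctsc, whose product cystatin F inhibits, was level (-0.03 and -0.13), and Ctsl (-1.05 and -1.05) and Serpinb1a (-1.24 and -1.84) were lower in cells with Ccl5.

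By Gzmk status, 24 of 61 listed genes were at least 2-fold higher in the recipient, beside 7.72% of all genes. In the donor 17 of 62 were, beside 6.5%. The transcription factor list gave 7 of the higher genes in the recipient and 5 in the donor. Medians of the listed genes were 0.71 and 0.57, beside 0.29 and 0.24 over all genes. In each library 4 listed genes were lower. Of all genes, the share 2-fold lower with Gzmk was 3.59% in the recipient and 4.28% in the donor. Gzmb had 132 CPM with and 10.6 CPM without Gzmk in the recipient and 90.1 and 3.82 CPM in the donor, and Prf1 was higher by 1.80 and 1.07. By Ly6c2 status, 3 of 62 were higher and 3 lower in the recipient, beside 0.735% and 1.63% of all genes. In the donor 1 of 63 was higher (Gzmm) and 10 lower, beside 1.69% and 2.92% of all genes. The other 2 that were higher in the recipient were Gzma (1.61) and Tbx21 (1.07), and in the donor Gzma was lower in cells with Ly6c2 (-1.51).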

How the data were processed

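The deposited data were raw UMI counts per gene and barcode, 1 matrix for each library of sorted splenic CD8 T cells. The build mm10 and the tools Cell Ranger and Seurat are named in the submitters' processing notes, and version 3.0.2 stands in the matrices per the file headers. How cells were called is not given in the sources used here. Receptor libraries were not analysed here.

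A barcode needed at least 500 genes and at most 10% of its UMIs from mitochondrial genes (555 of 6174 recipient and 587 of 8588 donor barcodes failed), and the highest doublet scores were removed at 0.8% per 1000 barcodes (278 and 550). Scores came from 2 simulated doublets per cell over 1500 genes, 30 components and 50 neighbours. Kept recipient cells held 37474356 UMIs and kept donor cells 57779715. UMIs of features with the same symbol were summed. CPM intervals are exact Poisson, shares exact binomial, and ratio intervals exact for 2 Poisson sums, at 95%; those of weighted ratios use a normal approximation of the counting error. None covers spread between mice, clones or libraries. Shares and co-detection used cells thinned to 3500 UMIs. Weighted ratios gave the recipient's 8 status combinations the UMI shares of the donor. A gene of a list or of all genes was counted when it had at least 100 UMIs and passed 1.5-fold (libraries) or 2-fold (status).

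No test was made, as each group was 1 library. The 5 genes, the lists, the markers and the alternatives were chosen with earlier results of these data known. Genes named were the 5, the 3 status genes, genes of the 7 lists and, for each of the 5, the 5 most correlated genes found in at least 5% of cells of both libraries, without ribosomal, mitochondrial and receptor segment genes. Fcer1g, S1pr5, Klrg1, Cx3cr1, Ccr7 and the receptor segments were named after their values were seen. Pdcd1, Igfbp4, Dapl1 and the markers of cell types came from the marker lists and not from the rule above. The ratio procedure was run on simulated Poisson counts, the error that its intervals assume. This cannot show how the intervals do under spread between cells, clones or libraries. Python 3.11.15, numpy 2.4.6, scipy 1.17.1, pandas 2.3.3 and scikit-learn 1.9.0 were used, with edgeR 4.0.16 for TMM factors in 1 alternative.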

Additional observations from a re-analysis of the deposited data

Results flagged for a closer look

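For Gzmm, Nkg7, Ctsw, Cst7 and Srgn, the sign of 4 ratios by a status or marker gene differed between the libraries, with counting intervals on opposite sides of 0. These differences were not tested, since each group was 1 library. Gzmm by Gzmk status was 0.38 in the recipient and -0.60 in the donor (log2 of cells with over cells without). Gzmm by Fcer1g status was 2.35 in the recipient, over 170 cells with Fcer1g, and -0.94 in the donor, over 51 cells that held 22 Gzmm UMIs. By Klrg1 or Cx3cr1, receptors of effector cells, Gzmm was at 0.72 in the recipient (0.481 to 0.945, 574 cells with either). In the donor it was at -0.19 (489 cells), and that interval ended next to 0 (-0.391 to -0.002). Srgn by S1pr5 status was 0.38 in the recipient and -0.17 in the donor.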

How the results depend on the processing

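Of 624 values recomputed under other settings, 485 stayed within their counting interval (for counts of genes, within 1.5 times), 132 moved further, and 7 whose interval lay on 1 side of 0 changed sign. Of 60 recomputed odds ratios, 37 moved beyond their interval. No paired analysis was possible because each group was 1 library and no test was made.

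The Gzmm ratio of recipient over donor over all cells (-1.42) was -1.60 without Fcer1g cells, -1.32 without the 3 leading Trbv segments of Gzmk cells in either library (3322 recipient and 4344 donor cells left), and -1.83 without Trbv14 cells, a setting chosen after the data were seen. Without Trbv14 cells Nkg7 was at -0.001. TMM factors shifted every ratio by -0.05, to -0.077 for Nkg7, -0.30 for Ctsw, -0.23 for Cst7 and 0.11 for Srgn. Totals without ribosomal, mitochondrial and receptor genes gave -0.059 for Nkg7, -0.29 for Ctsw and 0.13 for Srgn. Without the leading Trbv segments Cst7 was at -0.14.

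The weighted Gzmm ratio (-0.85) was -1.01 without Fcer1g cells, -0.70 without the leading Trbv segments, -1.31 without Trbv14 cells, -0.53 with Ccl5 status from 5 UMIs and -0.67 with status from thinned UMIs. Ccl5 status from 5 UMIs turned the weighted ratios of Nkg7 (0.025) and Ctsw (0.009) and those in Ccl5+ Ly6c2+ Gzmk- cells (0.018 for Nkg7, 0.043 for Ctsw), and gave -0.10 for Cst7 and 0.16 for Srgn. Without the leading Trbv segments the weighted ratios were -0.003 for Nkg7 and -0.088 for Cst7, and Ctsw was at -0.039 with thinned status. Cst7 by Ly6c2 status turned to 0.012 in the recipient and 0.021 in the donor without the leading Trbv segments, and to 0.025 in the donor with thinned status. The cause was not tested.

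At lower limits (a log2 ratio of 0.32 between libraries and 1.5-fold by status), pathway genes numbered 12 higher and 8 lower of 64 in the recipient, 4 of 62 (recipient) and 5 of 63 (donor) lower by Ccl5, 5 higher and 10 lower of 62 by Ly6c2 in the recipient, 4 higher and 18 lower of 63 by Ly6c2 in the donor, and 29 of 62 higher by Gzmk in the donor. With at least 20 UMIs, 2 of 64 were higher by Ly6c2 in the donor. Of all genes, these limits were passed by 7.67% higher and 5.42% lower between libraries, 2.15% and 2.94% lower by Ccl5 in the recipient and the donor, 2.05% higher and 4.16% lower (recipient) and 4.5% higher and 7.58% lower (donor) by Ly6c2, 18.6% higher by Gzmk in the donor, and, at 2-fold with at least 20 UMIs, 3.85% higher by Ly6c2 in the donor. Unthinned, the Srgn share was lower in the recipient than in the donor (-1.15 percentage points) where thinned it was higher (1.36, with an interval across 0). Odds ratios without thinning had 0.5 added to each count where 1 was 0. In Ccl5- Ly6c2- Gzmk- cells 5 Gzmm UMIs in each library left the ratio between -2.80 and 1.44.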

Other observations

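Pdcd1 (PD-1), an inhibitory receptor gene, and Gzmm went apart in both libraries. Recipient cells with Pdcd1 (421) had 27.0 CPM of Gzmm against 37.9 CPM in the others (-0.49, -0.88 to -0.13), and donor cells with it (418) had 45.0 against 102 CPM (-1.18, -1.48 to -0.90). Nkg7 was higher in the same cells, at 3969 against 1344 CPM in the recipient (1.56) and 3603 against 1455 CPM in the donor (1.31). Cst7 was higher by 0.93 in the recipient and 0.61 in the donor. Of the 6 larger status combinations, Pdcd1 was highest in Ccl5+ Ly6c2- Gzmk+ cells, at 97.6 CPM in the recipient and 87.1 CPM in the donor. Those cells had 32.2 and 43.9 CPM of Gzmm and 4085 and 4019 CPM of Nkg7. Recipient cells with a detected beta segment other than Trbv14 had 28.2 CPM of Gzmm. The parts of status and of Trbv14 cells in the Pdcd1 ratios were not tested.

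In Gzma cells of the recipient (197), Gzmm had 56.9 CPM against 36.7 CPM in the others, and in those of the donor (149) 103 against 99.9 CPM, with an interval across 0 (0.05, -0.25 to 0.34).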
